A study of Mus musculus with 24 samples.

Results

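The genes Atp1b1 and Atp1b3 encode beta subunits of the sodium pump, and their transcripts were followed through 6 splenic B cell subsets of 2 mouse strains. Their probe sets were selected by gene symbol, as all those of the array whose annotation names 1 of these genes and no other. Of 45101 probe sets on the array, 34945 had a single gene in that annotation, and 6 of them belong here, 5 to Atp1b1 and 1 to Atp1b3. Atp1b1 had been picked because it was lower in the marginal zone lineage of 1 strain and differed between the strains. Its values in those contrasts are therefore given below as descriptions without a test. Atp1b3 was not picked on a pattern of its own, and every contrast was tested for it.

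Cells came from spleens of female mice aged 7 weeks, either NOD/ShiLtJ (NOD), a strain that develops autoimmune diabetes, or C57BL/6/J (B6). Neither strain carried a transgene or received a treatment according to the labels. For each strain 8 mice were pooled, cells bearing CD3ε or CD11b were removed, and T1, T2FO, T3, FO, T2MZ and MZ cells were then separated by their surface B220, CD93, CD23, CD24, CD21/35 and IgM. By common usage T stands for transitional, FO for follicular and MZ for marginal zone. The experiment was done again with new pools, which gave 2 pools per strain, 2 arrays in each of 12 groups and 24 arrays in all.

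The sodium pump is an ATPase of the plasma membrane that carries sodium out of the cell and potassium into it, and so maintains the gradients on which membrane potential, cell volume and many transporters depend. Its alpha subunit binds the ions and splits ATP. The beta subunit, a glycoprotein with a single membrane span, is needed for the alpha subunit to fold and to reach the surface, and small FXYD proteins adjust the kinetics of the assembled pump. Lymphocytes rely on the pump as other cells do, and the potassium gradient it builds sets the driving force for calcium entry after antigen binding.

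Every value is a log2 value centred by probe set on its median over the 24 arrays. Differences between arrays can be read from such values, but levels, and with them the order of abundance of the genes, cannot. Array medians lay between -0.039 and 0.0595 and no pair of arrays was identical. Probe sets for T cells, myeloid cells, dendritic cells, NK cells and erythroid cells or platelets had array medians between -0.345 and 1.0. With no levels, presence or absence of such cells could not be read, but differences between arrays could. A probe set of the myeloid gene Csf1r stood at 3.83 and 4.02 in the NOD arrays labelled FO, against -1.13 to 0.703 in the other NOD arrays. In B6 it lay between 0.63 and 3.96 (MZ) in the second arrays and between -0.771 and 0.141 in the first. Over the NOD groups, 2 of 9 myeloid probe sets had an adjusted p under 0.05 in limma. Beyond leaving out arrays, the part of this signal in the results was not tested. The 5′ beta-actin control probe set lay between -4.04 and -0.77 in 10 B6 arrays and at 0.42 and 0.474 in the second MZ array and the second FO array of B6, against -0.538 to 0.795 in the NOD arrays. The 3′ control lay between -0.373 and 0.214 throughout.

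Several NOD labels, T1 among them, went against transcripts of the sort markers. Cr2, which encodes CD21 and CD35, had its lowest B6 mean in T1, -1.72 ± 0.15 (SD, n = 2), and its highest in MZ, 0.86 ± 0.52, but in NOD it was highest, at 1.20 ± 0.06, in the arrays labelled T1. Cd93, which developing B cells lose as they mature, measured 3.05 ± 0.19 in B6 T1 and -1.89 ± 0.0038 in the NOD arrays labelled T1 (probe set 1419589_at). A list of 6 marginal zone genes (Cd1d1, Cd9, S1pr3, Tlr3, Asb2 and Dtx1) had medians of 1.79 and 2.53 in the B6 MZ arrays and of 3.4 and 3.18 in the NOD arrays labelled T1. NOD groups are therefore named below as arrays labelled T1, T2FO and so on. Comparisons that join or oppose NOD groups by label rest on those labels.

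In B6, Atp1b1 was highest in T1 and lowest in MZ. Its most variable probe set, 1439036_a_at, measured 0.548 and 0.488 in the B6 T1 arrays and -0.0689 and 0.0689 in the T2FO arrays. It stood at -1.67 and -1.28 in T3 and at -1.62 and -1.97 in FO. The T2MZ arrays were at -2.70 and -1.90, and the MZ arrays at -4.91 and -5.16. The arrays of T1, of T2FO and of MZ each overlapped no other B6 group, whereas FO overlapped both T3 and T2MZ. The standard deviation of this probe set over the 24 arrays, 1.85, was at percentile 99.9 of all single-gene probe sets, and its values spanned 6.83.

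Probe sets 1423890_x_at and 1451152_a_at followed the same order of B6 group means. The first went from 1.12 ± 0.25 in T1 through 0.77 ± 0.19 in T2FO, -0.28 ± 0.13 in T3, -0.94 ± 0.38 in FO and -1.0 ± 0.13 in T2MZ to -2.43 ± 0.23 in MZ. The second went from 1.32 ± 0.03 in T1 through 0.92 ± 0.51, -0.11 ± 0.02, -0.71 ± 0.31 and -0.92 ± 0.17 to -1.64 ± 0.24 in MZ. In both, FO and T2MZ overlapped, while MZ lay below every other B6 array. Probe set 1418453_a_at had the same direction with a larger spread, from 0.25 ± 0.56 in T1 to -1.26 ± 0.56 in MZ, and its FO, T2MZ and MZ arrays overlapped, as did T3 with FO and T2MZ. Probe set 1455949_at did not follow the other 4. Its group means lay between -0.25 and 0.21 and its standard deviation over the arrays, 0.167, was at percentile 22.2. Over the 24 arrays its correlation with the other Atp1b1 probe sets was between -0.014 and 0.128, against 0.75 to 0.982 among those 4, a description over arrays that share pools. By the array maker's naming, the ending x marks probes that can also bind other transcripts.

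**Figure D1:**
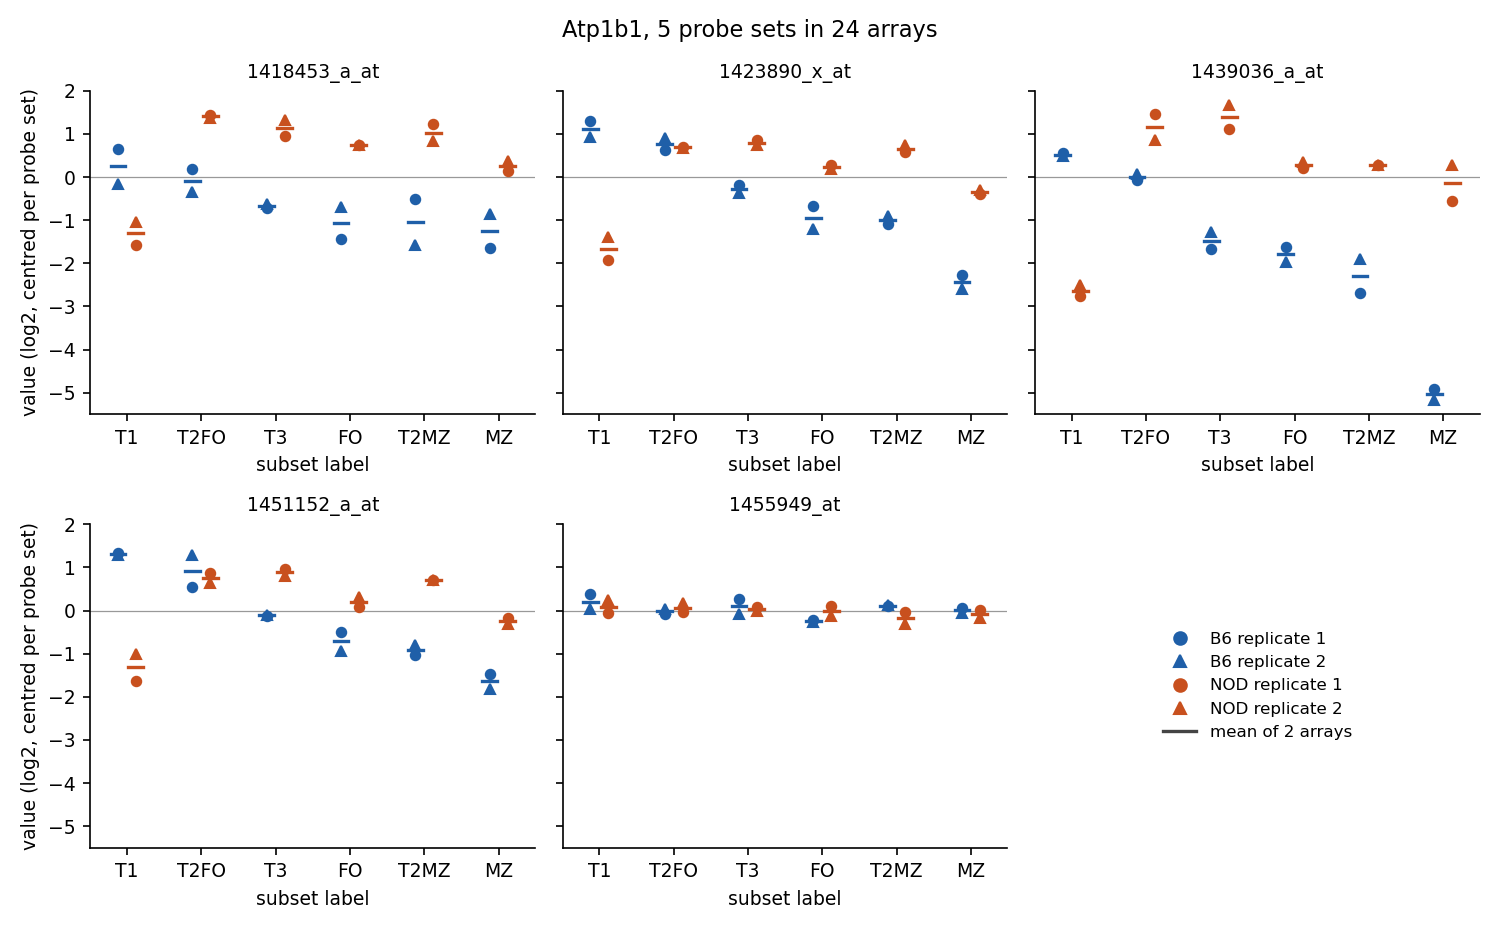
Values of the 5 Atp1b1 probe sets (log2, centred per probe set) by subset label, with circles for replicate 1, triangles for replicate 2 and a bar at the mean of the 2 arrays, B6 in blue and NOD in orange. In 4 probe sets the B6 mean is highest in T1 and lowest in MZ, where 1439036_a_at reaches -5.04, and the NOD arrays labelled T1 are the lowest of the NOD arrays, while 1455949_at stays between -0.303 and 0.382.

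As a description of the contrast on which the gene was picked, the mean of T2MZ and MZ minus the mean of T2FO and FO was -2.77 ± 0.21 (SE from limma) for 1439036_a_at, 6.82-fold lower. It was -1.63 ± 0.15 for 1423890_x_at, -1.38 ± 0.17 for 1451152_a_at, -0.57 ± 0.27 for 1418453_a_at and 0.19 ± 0.12 for 1455949_at. Of the 34945 probe sets, 1 had a lower value than 1439036_a_at, and 0.675% were called in this contrast, meaning a Benjamini-Hochberg adjusted p under 0.05 in limma. The median over the 5 Atp1b1 probe sets was -1.38 and that of all probe sets 0.00253. In bulk samples, fewer cells with the transcript and less transcript per cell cannot be told apart.

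The T2FO and FO arrays enter the lineage contrast with equal weight. Their difference from each other is therefore independent of that contrast and was tested. Strain differences by subset share its values, so this test may not be fully independent of the choice of the gene. The differences of T2FO and FO from T1 and T3 share values with the lineage contrast and are given as descriptions. Over T1, T2FO, T3 and FO together, limma's moderated F test called 3 of the 5 Atp1b1 probe sets (1423890_x_at, 1439036_a_at and 1451152_a_at) and 0.621% of all single-gene probe sets, a count from which nothing is read for that reason.

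From T2FO to FO, the step from transitional to mature follicular cells, 1423890_x_at fell by 1.72 (adjusted p = 0.00246 in limma), 1439036_a_at fell by 1.79 (0.0199) and 1451152_a_at fell by 1.63 (0.00821), and 0.398% of all probe sets were called. The other Atp1b1 probe sets differed by -0.98 ± 0.38 (adjusted p = 0.453) and -0.23 ± 0.17 (0.838). With only the FO and T2FO arrays in the fit, 0 of the 5 were called and 0 of all probe sets, so the calls rest on a spread estimated over all 12 groups. Without replicate 2 of FO or replicate 2 of T2FO, only 1423890_x_at remained called, and without replicate 1 of T2FO the adjusted p of 1439036_a_at was 0.122 (0.0913 after quantile normalization). Replicate 2 of B6 T2FO also had the highest median of 5 NK cell genes, 1.0 against -0.225 to 0.264 in the other arrays, and beyond leaving it out its part in the result was not tested.

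From T2FO to T3 the same 3 probe sets differed by -1.05 ± 0.21, -1.48 ± 0.30 and -1.03 ± 0.24 in B6. In this comparison 0% of all probe sets were called, with 836 under an unadjusted p of 0.05. From T1 to T2FO all 5 differences were below 0, from -0.52 to -0.23, and again 0% of all probe sets were called, with 406 under an unadjusted p of 0.05. Both steps involve the T2FO arrays and are descriptions.

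In NOD, Atp1b1 was lowest in the arrays labelled T1 and highest in those labelled T2FO and T3. Probe set 1439036_a_at measured -2.75 and -2.51 in the arrays labelled T1, 1.46 and 0.862 in those labelled T2FO and 1.12 and 1.67 in those labelled T3. It was 0.209 and 0.341 in those labelled FO, 0.283 and 0.281 in those labelled T2MZ and -0.552 and 0.278 in those labelled MZ. The arrays labelled T1 lay clear of all the other NOD arrays. Those labelled T2FO and T3 overlapped each other and lay above the rest.

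No difference among the 6 NOD groups was named in the choice of the gene. A strain difference averaged over the groups does not depend on such differences, but strain differences by subset share their values. The tests below may therefore not be fully independent of the choice. The F test over the 6 NOD groups does not depend on which group carries which label. It called 4 of 5 Atp1b1 probe sets, against 1.95% of all probe sets. Adjusted p in limma was 3.51e-05 for 1439036_a_at, 5.56e-05 for 1423890_x_at, 0.000533 for 1451152_a_at and 0.00549 for 1418453_a_at, and 1 for 1455949_at. Without replicate 1 of the arrays labelled T1, the value for 1418453_a_at was 0.12 and the other 3 remained called. By label, the arrays named T2FO exceeded those named T1 by 3.79 ± 0.30 for 1439036_a_at (13.9-fold, adjusted p = 7.59e-06), 2.72 ± 0.38 for 1418453_a_at, 2.35 ± 0.21 for 1423890_x_at and 2.08 ± 0.24 for 1451152_a_at. All 4 were called, where 2.49% of all probe sets were. The fifth differed by -0.02 ± 0.17. A list of 6 plasma cell genes was also high in the NOD arrays labelled T2FO, with medians of 1.12 and 1.13 against -0.682 to 0.381 in all other arrays, and its part in this difference was not tested.

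The lineage contrast that was large in B6 was smaller in NOD by label, but it leaves out the NOD arrays labelled T1. Those had the highest NOD medians of the 6 marginal zone genes, 3.4 and 3.18. The medians were -0.559 and -0.143 in the arrays labelled T2MZ and 1.19 and 1.59 in those labelled MZ. Whether the lineages differ less in NOD cells cannot be read from this contrast. The mean of the arrays labelled T2MZ and MZ minus that of the arrays labelled T2FO and FO was -0.65 ± 0.21 for 1439036_a_at (adjusted p = 0.311 in limma) and between -0.43 and -0.15 for the others. None of the 5 was called, 1 had an unadjusted p under 0.05, and 0.701% of all probe sets were called. As a description, the NOD contrast minus the B6 contrast was 2.12 ± 0.30 for 1439036_a_at, 1.32 ± 0.21 for 1423890_x_at, 1.13 ± 0.24 for 1451152_a_at, 0.14 ± 0.38 for 1418453_a_at and -0.34 ± 0.17 for 1455949_at, with 0.455% of all probe sets called.

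**Figure D2:**
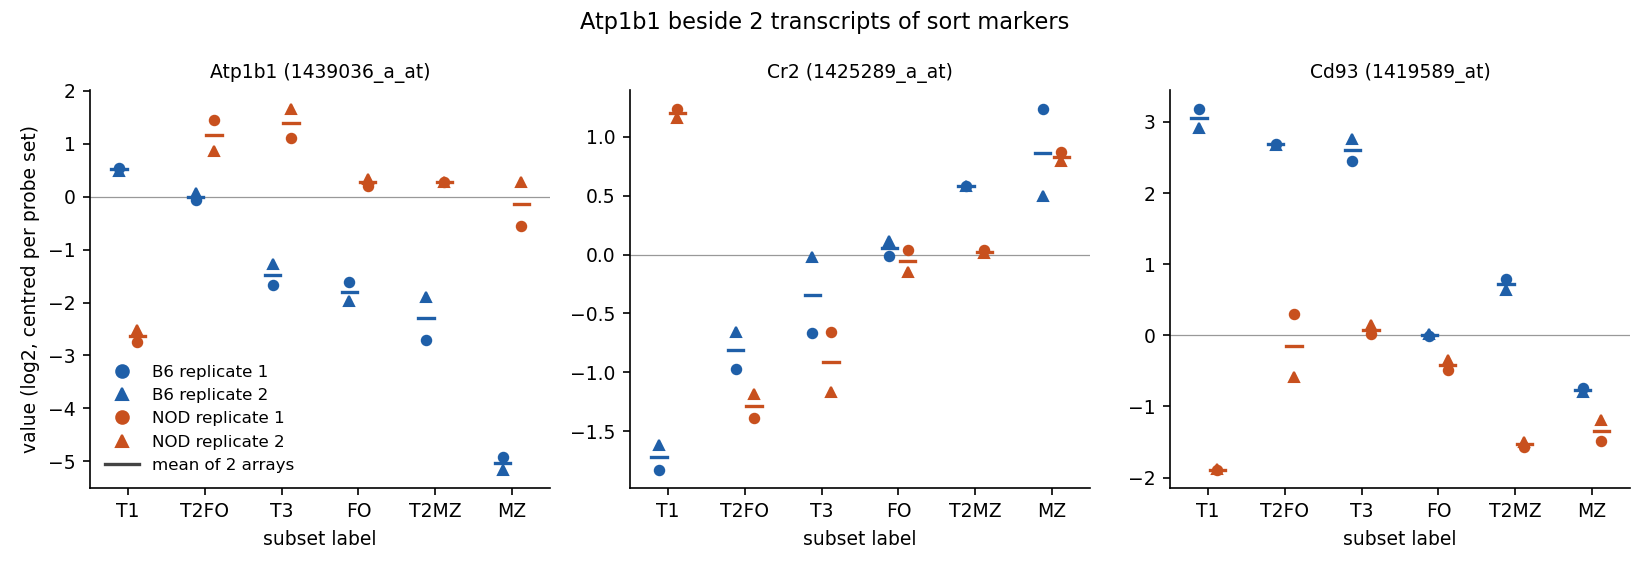
Values (log2, centred per probe set, with a separate vertical scale in each panel) of Atp1b1 probe set 1439036_a_at, of Cr2 and of Cd93 by subset label, symbols as for the plot of the 5 probe sets. The NOD arrays labelled T1 have the lowest Atp1b1 of NOD together with the highest Cr2 (1.20) and the lowest Cd93 (-1.89), and B6 MZ has the lowest Atp1b1 of B6 (-5.04) together with the highest B6 Cr2 (0.86) and the lowest B6 Cd93 (-0.77).

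Ordered over both strains, the 12 group means of 1439036_a_at ran from -5.04 in B6 MZ to 1.39 in the NOD arrays labelled T3. B6 MZ stood alone, 2.40 below the next group. Then came the NOD arrays labelled T1 (-2.63), B6 T2MZ (-2.30), B6 FO (-1.79) and B6 T3 (-1.48), each overlapping its neighbour. After a gap of 1.34 the NOD arrays labelled MZ (-0.14) overlapped B6 T2FO (0.00), and the NOD arrays labelled FO and T2MZ, both at 0.28, overlapped each other. B6 T1 (0.52) overlapped neither neighbour, and the NOD arrays labelled T2FO (1.16) and T3 (1.39) overlapped at the top.

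Over the 6 subsets together, Atp1b1 was higher in NOD, again as a description since the strain difference entered the choice of the gene. The mean of all 6 subsets does not depend on which NOD group carries which label. For 1439036_a_at the pool means were -1.74 and -1.62 in B6 and -0.04 and 0.153 in NOD, a difference of 1.74 ± 0.12 (3.33-fold). For 1418453_a_at they were -0.583 and -0.706 against 0.492 and 0.606, a difference of 1.19 ± 0.11. The differences were 0.52 ± 0.11 for 1423890_x_at, 0.36 ± 0.09 for 1451152_a_at and -0.04 ± 0.10 for 1455949_at. In the first 4 both NOD pools lay above both B6 pools, as they did in 20.3% of all probe sets, and 3.27% of all were called between strains. Pools were formed by replicate number. With the numbers of B6 FO and MZ crossed the differences stay as they are, but the share of all probe sets called was 0.0572%.

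The strain difference was not alike in all groups. By label, 1439036_a_at differed by -3.15 ± 0.30 (NOD minus B6) in T1, and NOD was higher by 1.16 ± 0.30 in T2FO, 2.87 ± 0.30 in T3, 2.07 ± 0.30 in FO, 2.58 ± 0.30 in T2MZ and 4.90 ± 0.30 in MZ. Averaged over T1, T2FO, T3 and T2MZ only, the median difference of the 5 Atp1b1 probe sets was -0.0313, against 0.522 over all 6 subsets and 1.18 without the groups labelled T1. The low 5′ control signal of 10 of the 12 B6 arrays moves with strain. With the 5′ minus 3′ difference of that control as a covariate, the strain difference was 2.08 for 1439036_a_at and 0.00879 for 1423890_x_at.

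Because of the sort-marker transcripts, the NOD arrays were also set beside B6 groups of another label, a pairing made after those values had been seen and given without a test. NOD arrays labelled T1 were read beside B6 MZ, T2FO beside B6 T1, T3 beside B6 T2FO, FO beside B6 T3, T2MZ beside B6 FO and MZ beside B6 T2MZ. For 1439036_a_at NOD was higher in 6 of 6 pairs without overlap, by 0.642 to 2.4, as was the case in 3.08% of all probe sets. NOD was higher in 5 of 6 pairs for 1418453_a_at and 1423890_x_at and in 4 of 6 for 1451152_a_at, where the pairs ran from -0.556 to 1.41. For 1455949_at the pairs ran from -0.19 to 0.0901.

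Atp1b3, which encodes another beta subunit, showed no group that stood apart. Its probe set 1423126_at ranged over 1.37 in the 24 arrays, with a standard deviation of 0.359 at percentile 63.4. In B6 the arrays measured 0.0689 and -0.63 in T1, 0.186 and -0.52 in T2FO, -0.112 and -0.189 in T3, -0.431 and 0.628 in FO, -0.151 and -0.59 in T2MZ and -0.296 and 0.0807 in MZ. In NOD they measured -0.0696 and -0.0207 in the arrays labelled T1, -0.0841 and 0.0048 in T2FO, 0.578 and 0.0306 in T3, 0.744 and -0.0048 in FO, 0.038 and 0.299 in T2MZ and 0.4 and 0.0637 in MZ. Every neighbouring pair of the 12 ordered groups overlapped.

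Tested in limma in 26 comparisons, Atp1b3 was called in none, and 1 had an unadjusted p under 0.05. Its lineage contrast in B6 was -0.20 ± 0.25 (95% interval -0.745 to 0.336, adjusted p = 1), and in NOD by label 0.04 ± 0.25 (-0.505 to 0.576, adjusted p = 0.998). The F test gave an adjusted p of 1 over the 6 B6 groups, where 1.56% of all probe sets were called, and of 1 over the 6 NOD groups. These intervals do not show that the groups had like levels.

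Between strains Atp1b3 was higher in NOD by 0.33 ± 0.12 over the subsets (adjusted p = 0.228 in limma on 4 pool means, unadjusted 0.0416), the comparison with the smallest unadjusted value. Pool means were -0.123 and -0.203 in B6 and 0.268 and 0.062 in NOD. These pools, and with them the standard error and p, rest on the replicate numbers. Over all single-gene probe sets, replicate differences of B6 FO and MZ ran against those of the other B6 groups (r from -0.633 to -0.355). With the numbers of B6 FO and MZ crossed the difference stays as it is, but 0.0572% of all probe sets were called, against 3.27%. By subset label the difference was between 0.13 and 0.54, above 0 in 6 of 6 subsets and called in none of them. All probe sets were called at 6.44% in T1, 2.72% in T2FO, 1.84% in T3, 2.98% in FO, 2.74% in T2MZ and 2.6% in MZ. The difference was 0.0853 with the 5′ control as a covariate, a fit on 4 pool means that cannot tell signal quality and strain apart. With the second arrays of B6 FO and B6 MZ left out it was 0.448 in the 12-group fit. That fit takes arrays of the same pool as independent, so it is no test of strain. When any 1 pool was left out, the difference was 0.225 to 0.431.

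The replicates of Atp1b3 followed the 5′ control. In 6 of 6 B6 groups and in 6 of 6 NOD groups, the array with the higher 5′ beta-actin signal also had the higher Atp1b3 value. Within B6 the same held in 6 of 6 groups for 16.7% of all single-gene probe sets, so it is not particular to Atp1b3. For NOD no such share was computed. For Atp1b1 the count in B6 was 5 of 6 for 1418453_a_at, 2 of 6 for 1423890_x_at and 1455949_at, and 1 of 6 for 1439036_a_at and 1451152_a_at. Of all probe sets, 18.4%, 11.6% and 9.22% had these counts of 5, 2 and 1. The part of RNA or labelling quality in the Atp1b3 values was not tested, since the covariate moves with strain.

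**Figure D3:**
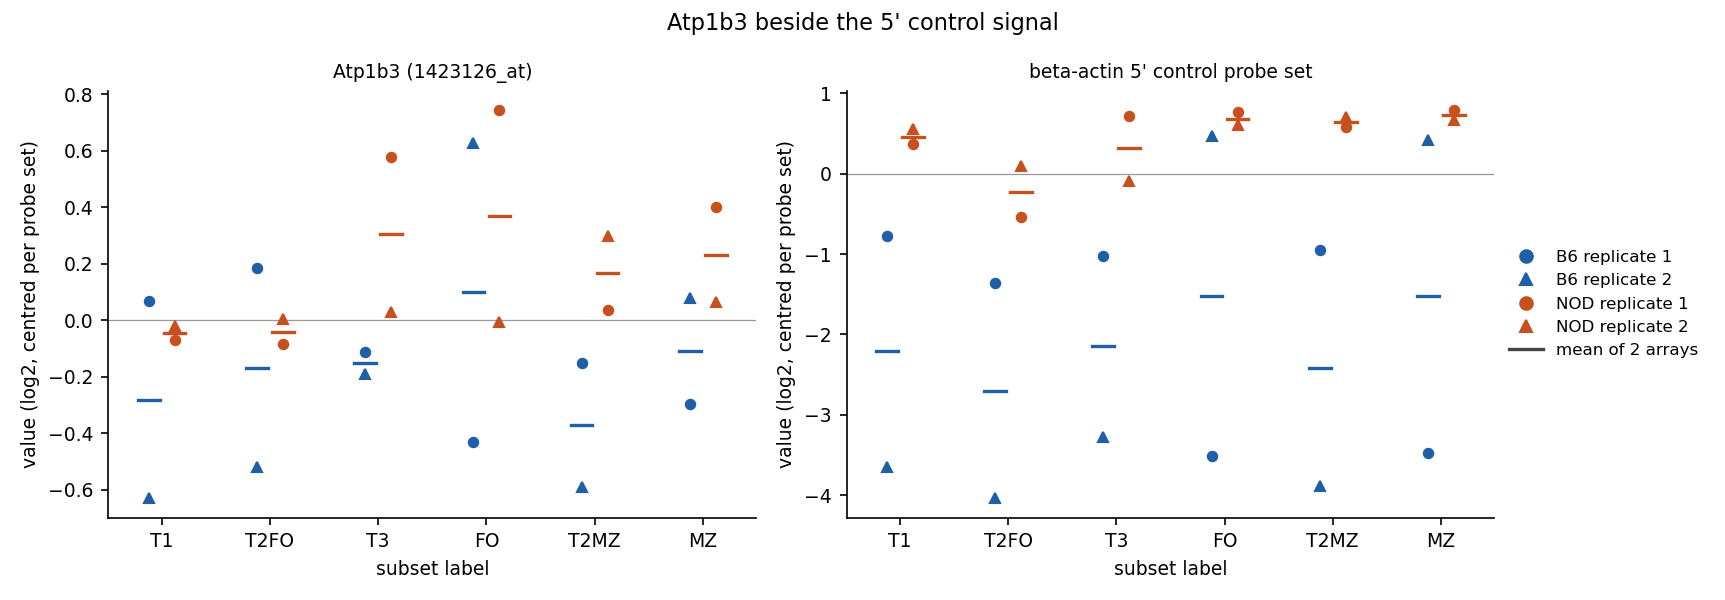
Values (log2, centred per probe set) of Atp1b3 and of the 5′ beta-actin control probe set by subset label, with circles for replicate 1, triangles for replicate 2, a bar at the mean of the 2 arrays, and a separate vertical scale in each panel. In each of the 12 groups the replicate that is higher in the control is also higher in Atp1b3, and the control lies between -4.04 and -0.77 in 10 of the 12 B6 arrays.

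**Figure D4:**
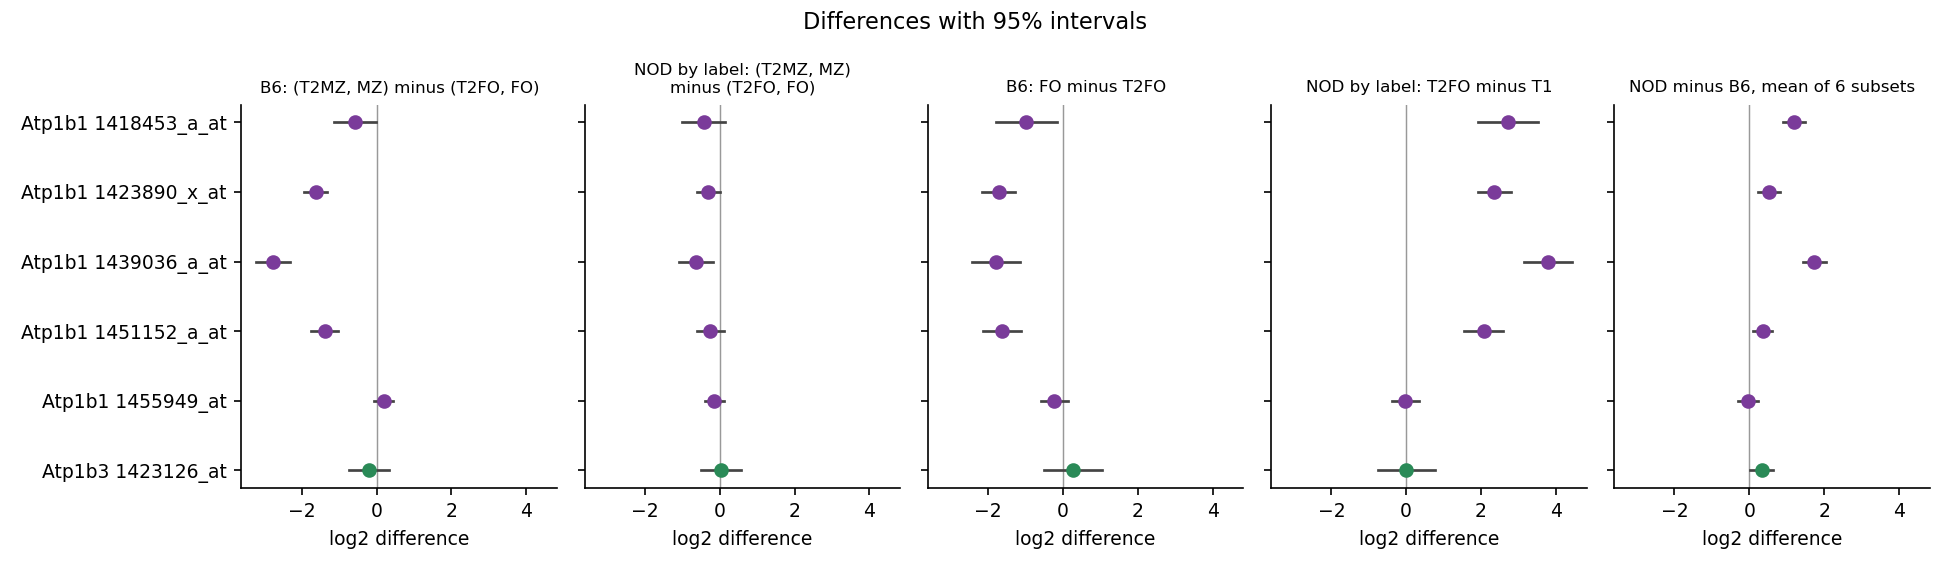
Log2 differences of the 6 probe sets in 5 comparisons, with 95% intervals from limma as horizontal lines, Atp1b1 in purple and Atp1b3 in green. The B6 lineage and strain panels describe contrasts on which Atp1b1 was picked. In the others 3 Atp1b1 probe sets lie between -1.79 and -1.63 in FO minus T2FO of B6 and 4 between 2.08 and 3.79 in T2FO minus T1 of NOD by label, while Atp1b3 lies at 0.27 and 0.01.

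As genes beside the members, the list held 13 genes with single-gene probe sets, 22 in number. They were further genes of the subunit families and those for FXYD proteins and for Nkain proteins, which bind the beta subunit. None of the 22 was called by limma in the B6 lineage contrast, the F tests of either strain, the NOD lineage contrast or between strains. With 0.675%, 1.56%, 0.621%, 1.95%, 0.701% and 3.27% of all probe sets called in these comparisons, 0 of 22 is near the background and no result about these genes. At an unadjusted p under 0.05 there was 1 probe set in the NOD lineage contrast and 0 in the others. Their B6 lineage differences lay between -0.159 and 0.287, and their strain differences between -0.16 and 0.398.

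Among genes of the beta subunit family, the 2 probe sets of Atp1b2, a subunit known from glia and neurons, had B6 lineage differences of -0.02 ± 0.15 and 0.01 ± 0.18. Atp1b4, a gene of that family known from muscle, had -0.03 ± 0.12. Atp1a4, the alpha subunit of sperm, had -0.04 ± 0.10. Fxyd5, which regulates the pump and cell adhesion, varied between groups and between replicates. It went from -1.31 ± 0.68 in B6 T1 to 0.81 ± 1.28 in B6 T2MZ (F test over B6, adjusted p = 0.657) and from -0.54 ± 0.70 in the NOD arrays labelled T1 to 1.46 ± 0.09 in those labelled T2MZ (adjusted p = 0.994). Strain differences were 0.40 ± 0.26 for Fxyd5 and -0.10 ± 0.10 for Fxyd6. The remaining FXYD genes (Fxyd1, Fxyd2, Fxyd3, Fxyd4 and Fxyd7) had B6 lineage differences from -0.04 to 0.13.

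**Figure D5:**
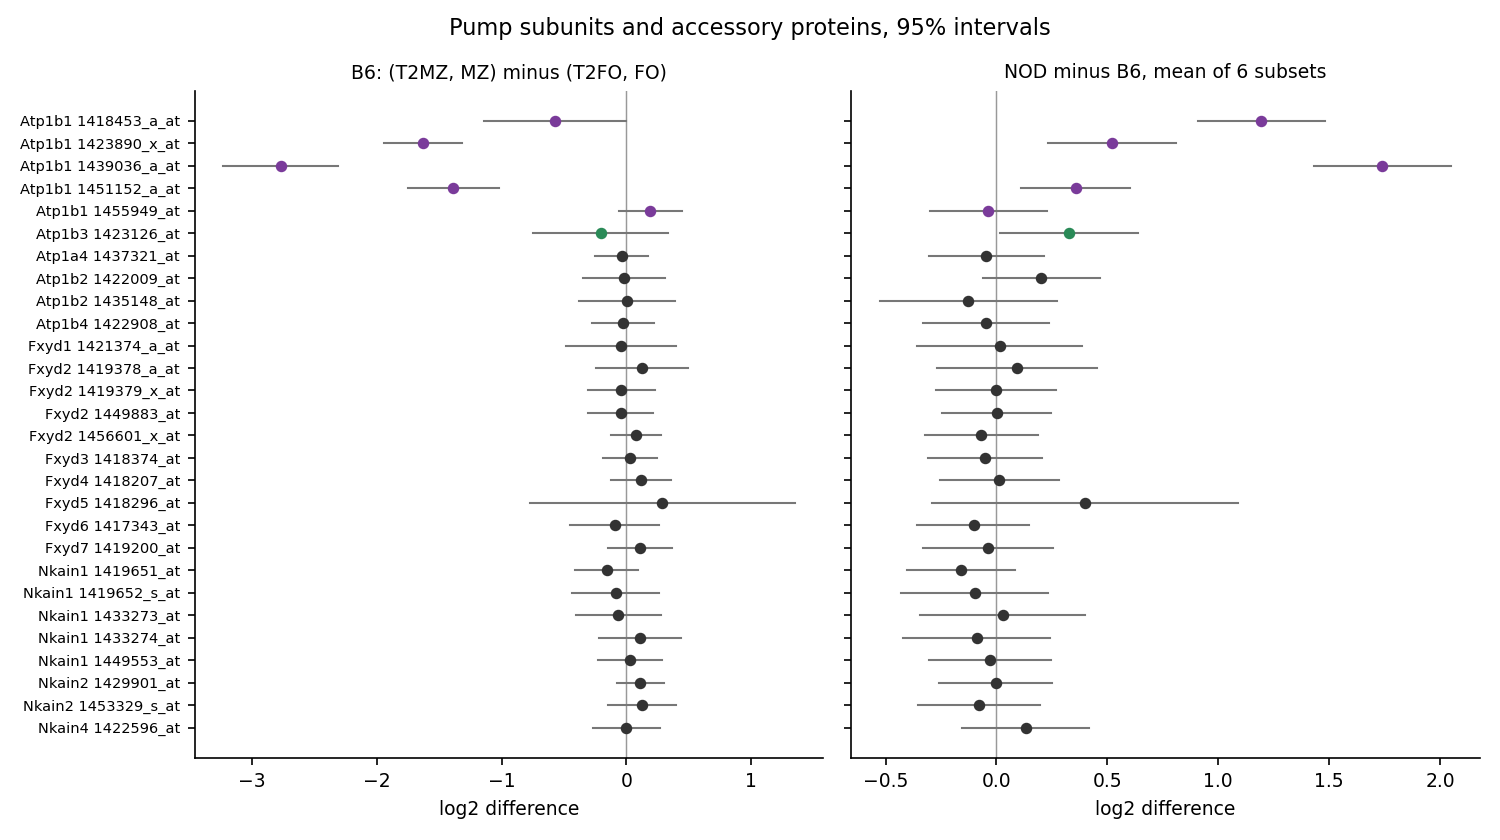
Log2 differences with 95% intervals in the B6 lineage contrast on the left and between strains on the right, with a separate horizontal scale in each panel. Atp1b1 is in purple and Atp1b3 in green. The 22 probe sets of other genes of the subunit families and of FXYD and Nkain genes are in black. The black points lie between -0.159 and 0.287 on the left and between -0.16 and 0.398 on the right, against -2.77 and 1.74 for Atp1b1 probe set 1439036_a_at, whose contrasts chose it.

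Related ion pumps and regulators of sodium and potassium held single called genes. Of 12 genes for gastric proton pumps, calcium pumps and their relatives (27 probe sets), none was called in the B6 lineage contrast, where 0 had an unadjusted p under 0.05. Between strains Atp2a3, a calcium pump of the endoplasmic reticulum in blood cells, was higher in NOD by 0.84 ± 0.12 (adjusted p = 0.046), and Atp2c1, a calcium and manganese pump of the Golgi, was lower (-1.09 ± 0.15, adjusted p = 0.0454). The other probe sets of these genes were not called. Of 17 genes for kinases, cotransporters, exchangers and potassium channels, 15 were measured with 33 probe sets. In B6 none was called over the 6 groups or in the lineage contrast (1.56% and 0.675% of all probe sets), with 4 and 6 probe sets under an unadjusted p of 0.05.

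In NOD, 4 of the 33 probe sets, of 3 genes, were called over the groups, against 1.95% of all probe sets. Among them were Kcnk6, a potassium leak channel, and Slc12a2, which brings sodium, potassium and chloride into cells. In arrays labelled T2FO against T1, where 4 of the 33 and 2.49% of all probe sets were called, Kcnk6 was higher by 1.56 ± 0.24 (adjusted p = 0.00228), and 2 of 3 probe sets of Slc12a2 were lower, with differences of -1.55 ± 0.26 and -1.02 ± 0.25 (0.00443 and 0.0415). For Kcnk5, another leak channel, 1 of 2 probe sets was lower there, at -1.98 ± 0.41 (0.0165). In the NOD lineage contrast 1 of 2 probe sets of Kcnn4, the calcium-activated potassium channel of lymphocytes, differed by -1.66 ± 0.34 (0.0407) and Kcnk6 by -1.10 ± 0.17 (0.00705), which makes 2 of 33 against 0.701% of all. The NOD minus B6 difference of that contrast was -2.75 ± 0.49 for the same Kcnn4 probe set (0.0215). Between strains 1 of 3 probe sets of Wnk1, a kinase that controls these cotransporters, was higher in NOD by 0.74 ± 0.09 (0.0367). In the strain comparisons by subset label the genes called were Slc12a2, Slc12a7, Kcnk5, Kcnk6, Kcnn4, Kcna3 and, among the pumps, Atp2b2, with 1 to 5 of the 33 and 0 to 1 of the 27 probe sets called in each subset, where 1.84% to 6.44% of all were; counts of 0 or 1 are near that background.

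The genes whose pattern was most like that of Atp1b1 were found by Pearson correlation of 1439036_a_at with all single-gene probe sets of other genes over the 12 group means, which share pools. The 5 closest were Lsp1 (r = 0.96), an actin-binding protein of leukocytes, 4933412E12Rik (0.96), Dnah8 (0.96), a dynein heavy chain, Chst15 (0.95), a sulfotransferase, and Myo1g (0.95), a myosin of blood cells. Their standard deviations over the arrays, 0.337 to 0.999, were below the 1.85 of Atp1b1. In B6 MZ Dnah8 stood at -1.91 and Chst15 at -1.88, and their B6 lineage differences were -1.13 and -1.16. With each strain's mean subtracted first, the 5 closest were Samhd1 (r = 0.98), which degrades deoxynucleotides, Ccm2 (0.98), Gucd1 (0.98), Chst15 (0.97) and Kcnab2 (0.97), a beta subunit of potassium channels. Samhd1, Ccm2 and Gucd1 had strain differences of -0.114, -0.29 and -0.26, against 1.74 for Atp1b1.

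For Atp1b3 the closest were Rnf115 (r = 0.97), Tmcc2 (0.97), Ddx41 (0.96), Xrn2 (0.94) and Mbd2 (0.94), and after subtraction of the strain means Tmcc2, Rnf115, Sae1, Tdp1 and Ddx41 (0.92 to 0.94). Neither list shared a gene with those of Atp1b1. The genes next to Atp1b1 in the RefSeq gene table (Blzf1, Nme7, Dpt and Xcl1) had strain differences from -0.616 to 0.433, and none of their 7 probe sets was called. Those next to Atp1b3 (Gk5, Tfdp2, Rnf7 and Gm28729) had differences from -0.52 to 0.131 in 8 probe sets, none of them called.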

How the data were processed

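RNA was extracted with Trizol, copied from an oligo(dT) primer, amplified in 2 cycles and hybridised to Affymetrix mouse genome arrays, per the labels' protocols. The deposited log2 values are RMA summaries, as the processing notes of the submitters state. Neither a version nor the base of the logarithm is given in the sources used here, so base 2 is an assumption. Each probe set was found centred on its median over the arrays (largest median 5e-07), so no filter on dim probe sets was possible. Probe sets were named from the platform's annotation.

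Contrasts were fitted with limma 3.58.1 (R 4.3.3) to 34945 single-gene probe sets, with 1 mean for each of 12 groups; strains were compared on 4 pool means. P-values were adjusted by Benjamini-Hochberg over all of them and called under 0.05. Errors are standard errors from limma beside differences and standard deviations beside group values. The scripts were tested on simulated data. Only 2 arrays per group limit the precision.

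Members and gene lists were chosen with earlier results of these data known. All member probe sets are named, listed genes where called or where they are Atp1b2 or FXYD genes, and the 5 genes most like each member; other pump genes were added as context. Arrays sharing a replicate number were checked for pairing. The alternatives tried were another normalization, other summaries and sets of probe sets, other samples, blocks, a 5′ control covariate and left-out arrays. Plots were made in Python 3.11.15 with matplotlib 3.10.9.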

Additional observations from a re-analysis of the deposited data

Results flagged for a closer look

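Between the groups labelled T1 and T2FO, 3 Atp1b1 probe sets had differences of opposite sign in the strains: in B6 both T2FO arrays lay below both T1 arrays, and in NOD both arrays labelled T2FO lay above both labelled T1. For 1439036_a_at the differences were -0.518 in B6 and 3.79 in NOD, 4.31 apart. For 1423890_x_at they were -0.344 and 2.35, 2.69 apart, and for 1451152_a_at -0.395 and 2.08, 2.47 apart. None of the 3 B6 differences was called by limma, where 0% of all probe sets were. All 3 NOD differences were called, against 2.49% of all probe sets. The share of all probe sets with such opposite differences was not computed, so the count of 3 is a description. The difference between the strains was not tested, because strain entered the choice of the gene. It also rests on the NOD label T1, which the sort-marker transcripts contradict. No group has more than 2 arrays, so no single array could be examined as standing apart from its group.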

How the results depend on the processing

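Each comparison was recomputed under up to 43 alternatives. With only the arrays compared in the fit, 0 of the 6 probe sets were called over the 4 B6 groups outside the marginal zone lineage and 0 in FO minus T2FO of B6, against 3 each in the fit of all 12 groups; fewer arrays then estimate the spread. In FO minus T2FO 1 was called without replicate 2 of B6 FO and MZ, and 1 to 3 when single arrays were left out. The median strain difference of Atp1b1 was 0.858 in the more variable 50% of probe sets, which leaves out 1455949_at. Over T1, T2FO, T3 and T2MZ only, chosen after seeing the data, it was -0.0313, with -0.0313 for 1423890_x_at and -0.0444 for 1451152_a_at, and 1.18 without the groups labelled T1; these depend on the NOD labels. For Atp1b3 between strains the outcome changed only without replicate 2 of B6 FO and MZ in the 12-group fit (difference 0.448). That fit takes arrays of the same pool as independent, and no strain result is read from it. Of all probe sets, 0% (without either NOD pool) to 21.7% were called between strains and 0% to 3.84% over the 4 B6 groups.

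The replicate number defined the pools of the strain comparison but was not used as a block within strains: correlations of same-numbered arrays' deviations were -0.633 to 0.874 in B6, 8 of 15 pairs under -0.1, and -0.05 to 0.5 in NOD, 12 of 15 over 0.1. With the number as a replicate block, 4 of 6 probe sets were called over the NOD groups, as without it, where 2.76% of all probe sets were. Over the 4 B6 groups 3 were called, as without it (1.61% of all), and 4 with B6 FO and MZ numbers crossed (3.84% of all). Those B6 counts share values with the contrast that chose Atp1b1, and nothing is read from them. With the numbers crossed, 20 of all probe sets, against 1141, were called between strains.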
